A study of Rattus norvegicus with 4 samples.

Results

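Liver of rats carrying a dominant negative form of connexin 32 was compared with liver of wild-type rats, where both had luteolin in the diet. The comparison rests on 2 of the 4 arrays of the study, 1 for each genotype, and takes in every probe that lay above background on both. Of 20089 genes, 14426 (71.8%) were compared, each by its brightest probe. All rats were Sprague-Dawley, received an intraperitoneal dose of diethylnitrosamine, a liver carcinogen, when 10 weeks old, and were then kept for 12 weeks on a diet that lacks methionine and choline, which brings on fatty, inflamed and scarred liver. The other 2 arrays held transgenic and wild-type liver from the same diet without luteolin, a plant flavonoid, and serve here as a second pair of the same genotypes that shares no array with the first. The sources used here do not give the promoter and expressing cells of the transgene, the sex of the rats, how much luteolin they ate, or whether RNA was pooled over rats. Each group had 1 array, so every ratio below compares 2 arrays and has no replicate check. Ratios are log2 values, transgenic over wild type, after correction for background and quantile normalization. An offset of 50 intensity units draws the ratios of dim genes toward 0.

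Connexin 32, encoded by Gjb1, forms most of the gap junctions through which hepatocytes exchange ions and small metabolites. A dominant negative subunit joins the channels and blocks them, so the channel can fail while the transcript of the normal gene stays. Liver fat burning is governed by the nuclear receptor PPAR-alpha, which acts on genes for fatty acid uptake, carnitine transfer and oxidation in peroxisomes and mitochondria. A separate program, set by the pulses of growth hormone, gives rat liver its male or female pattern of cytochromes P450, sulfotransferases and secreted lipocalins.

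Both luteolin samples carried the markers of whole liver. The albumin gene Alb read 15.62 on the transgenic and 15.49 on the wild-type luteolin array, and transthyretin (Ttr) read 15.29 and 15.37 (normalized log2 intensity). The 20 hepatocyte markers compared had a median ratio of -0.06. In whole tissue, fewer cells of a type and less RNA per cell cannot be told apart. Of 20174 probes, 72.5% in luteolin-fed transgenic and 78.7% in luteolin-fed wild-type liver were above background, and median raw intensities of 48.6 and 51.5 lay close to the background constants of 38.1 and 38.5. Of the genes compared, 6092 (42.2%) lay at least 50 units above background on both.

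Few genes differed much on the quantile-normalized scale. At 2-fold or more, 15 genes were higher in the transgenic liver, 0.104% of those compared, and 9 were lower, 0.0624%. At 1.5-fold or more, 62 genes (0.43%) were higher and 64 (0.444%) were lower. The median ratio was 0.00 and the central 95% of genes lay between -0.34 and 0.33. The spread grew with brightness, from an SD across genes of 0.04 among the 3607 dimmest genes to 0.26 among the 3607 brightest, and none of those 3607 dimmest genes reached 2-fold. At any size, 51.4% of genes were higher and 48.4% lower, which is the background for the list counts below. Quantile normalization gives the arrays the same distribution of values, so the near balance of higher and lower genes is partly built in. With each array centred on its median instead, 23 genes were higher and 555 lower at 1.5-fold, and 35.9% were above 0.

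**Figure D1:**
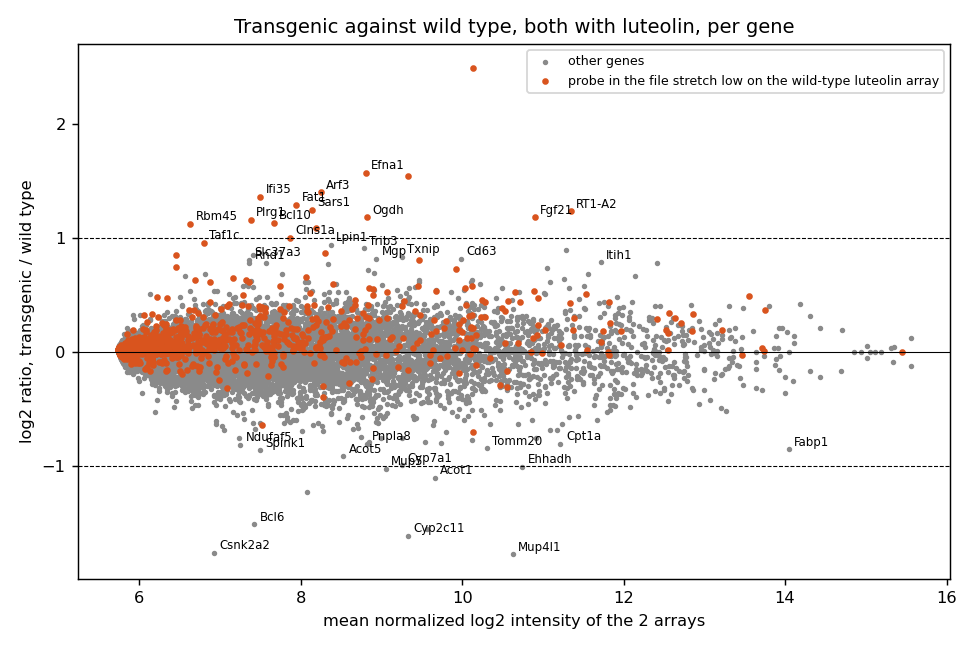
Log2 ratio of transgenic over wild type, both with luteolin, against the mean normalized log2 intensity of the 2 arrays, 1 point per gene compared (14426 genes). Dashed lines mark 2-fold. Every point above the upper line is orange, which marks probes in 1 stretch of the deposited file, while no point below the lower line is.

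All 15 genes at 2-fold or more higher had their probes within rows 11267 to 12523 of the deposited file, a stretch that holds 920 (6.38%) of the genes compared. Leaving that stretch out left 0 of 13506 genes higher (0%) and 9 lower (0.0666%). The stretch was found from genes that were low on the wild-type luteolin array alone, at least 0.7 below the median of the other 3 arrays while these lay within 0.4 of each other. It held 14 of the 17 such genes on that array. Such genes have ratios above 0 by that choice, so their place among the higher genes is no separate finding. The sources used here do not say whether neighbouring rows were neighbouring spots. At 1.5-fold, 28 of the 62 higher genes lay in the stretch, and outside it 34 were higher (0.252%) and 62 lower (0.459%).

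The 920 genes of the stretch had a median ratio of only 0.05, with 28 higher and 2 lower at 1.5-fold, so a few of its members were far from 0. Most of the examples that follow are genes by which it was found. Arf3, a small GTPase of vesicle traffic, read 8.95 in transgenic and 7.55 in wild-type liver with luteolin, against 8.98 and 9.10 without it, a ratio of 1.40. RT1-A2, a class I histocompatibility gene of the rat, read 11.97 and 10.73 with luteolin and 11.58 and 11.60 without it, a ratio of 1.24. In both genes the wild-type luteolin array stood below the other 3 arrays, which lay close together. Efna1 (1.57), a ligand of Eph receptors, Ifi35 (1.36), an interferon-induced gene, the cadherin Fat1 (1.29), the seryl-tRNA synthetase Sars1 (1.25), Ogdh (1.18), a subunit of the 2-oxoglutarate dehydrogenase complex, the splicing factor Plrg1 (1.16), Bcl10 (1.14), an adaptor of NF-kB signalling, Rbm45 (1.12) and Clns1a (1.00) made up most of the others. The rest are not named here.

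Fgf21, a hormone that liver secretes in fasting and stress, differed on the other arrays as well. It read 11.49 in transgenic and 10.31 in wild-type liver with luteolin, a ratio of 1.18, and 10.30 and 10.96 without luteolin, a ratio of -0.66. The transgenic luteolin array was the highest of the 4 and the wild-type luteolin array lay level with the lowest. Its probe lies at row 11388, inside the stretch, and the part of the stretch in its ratio was not tested.

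**Figure D2:**
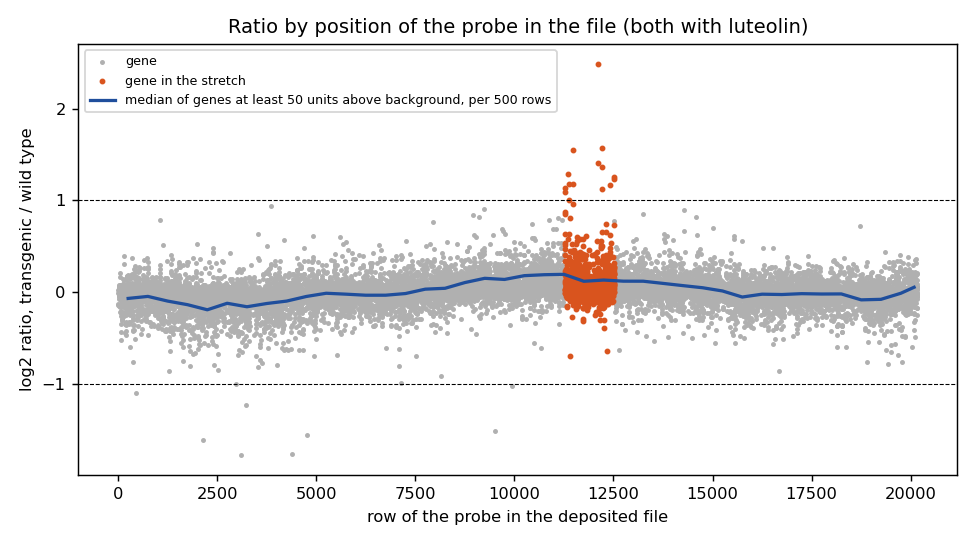
Log2 ratio of transgenic over wild type, both with luteolin, against the row of the probe in the deposited file, 1 point per gene compared. Orange points lie in rows 11267 to 12523 and hold all 15 genes above the upper dashed line (2-fold). The blue line, the median of brighter genes per 500 rows, runs from -0.19 to 0.19.

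A weaker drift ran along the whole file. Among genes at least 50 units above background, the median ratio per block of 500 rows ranged from -0.19 around rows 2001 to 2500 to 0.19 around rows 11001 to 11499. With the running median along the rows taken off, 13 genes were higher (0.0901%) and 8 lower (0.0555%) at 2-fold. The counts at 1.5-fold went from 62 to 50 higher (0.347%) and from 64 to 39 lower (0.27%).

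Genes of the male liver pattern were lower in the luteolin-fed transgenic rats, and their list had the lowest median of the 47. The lists and their members were chosen with earlier results of these data known. This rank and the list counts here and below are therefore descriptions only. Of 14 members of the list of urinary lipocalins and male-predominant genes, 13 were lower and 1 was higher, with a median ratio of -0.42 against 0.00 over all genes. Of these, 5 were lower by 1.5-fold or more and 4 by 2-fold or more, where 0.444% and 0.0624% of all genes were. None was higher by 1.5-fold. Without luteolin the median of the list was -0.00. The median lay from -0.90 to -0.30 over the 13 alternative settings, the first on the authors' normalized values, where all genes had a median of -0.42.

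Cyp2c11, the male-specific cytochrome P450 that hydroxylates steroids, read 8.52 in transgenic and 10.13 in wild-type liver with luteolin, and 8.18 and 8.36 without it. The wild-type luteolin array stood alone above the other 3, and the ratio was -1.61 (3.06-fold lower). Bcl6, a transcriptional repressor that is stronger in male liver and acts against female-pattern genes in mice, read 6.67 and 8.18 with luteolin and 6.99 and 7.45 without it. Both transgenic arrays lay below both wild-type arrays, with ratios of -1.51 and -0.45. Car3, a carbonic anhydrase abundant in male rat liver, read 9.78 and 10.48 with luteolin and 9.46 and 9.48 without it, so the luteolin-fed wild type again stood alone above the rest, and its ratio was -0.70. Its probe lies inside the stretch where other genes were low on that array. Smaller ratios in the same direction were those of Igf1 (-0.36), the growth factor that growth hormone induces, and of the male P450 Cyp2a2 (-0.35).

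Transcripts of the urinary lipocalin family, which carry pheromones in urine, changed side between the diets. Mup4l1 read 9.74 in transgenic and 11.51 in wild-type liver with luteolin, and 10.90 and 8.76 without it. Its ratio was -1.77 with luteolin and 2.14 without. Mup5 read 8.54 and 9.56 with luteolin and 8.95 and 7.48 without it, with ratios of -1.02 and 1.48. In both genes wild-type liver without luteolin was the lowest array and wild-type liver with luteolin the highest, while the 2 transgenic arrays lay between them. Sult1e1, the sulfotransferase that inactivates oestrogens, followed the same order of signs (-0.49 with luteolin, 1.01 without), but its highest array was the transgenic one without luteolin. Probes within the lipocalin family can share sequence, so Mup4l1 and Mup5 may not be separate measurements. The Mup4l1 probe also lies in rows 2945 to 3259, where genes low on the transgenic array without luteolin cluster. That array is not used in the luteolin ratio, and Mup4l1 read above wild type on it.

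Female-predominant genes leaned the same way. Of 10 compared, 9 were lower in the transgenic liver, with a median of -0.15 against -0.20 without luteolin, and none passed 1.5-fold. Trim24, a nuclear receptor cofactor, was at -0.40 and the P450 Cyp2c7 at -0.24. The growth hormone axis list, which also holds Bcl6 and Igf1, had 10 of 19 genes higher, 9 lower and a median of 0.01. The receptor Ghr read 9.94 and 9.83 with luteolin, a ratio of 0.11, the transducer Stat5b was at 0.01 and the feedback inhibitors Socs2 and Cish were at 0.11 and 0.35.

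Promoters of the 2 leading genes of the male list are shown because both belong to a set that was lower together. They come from RefSeq (rat, GRCr8), run 5′ to 3′ from 250 bases before to 50 after the annotated start, and carry in capitals the motifs searched on both strands. AGGTCA, a half-site of nuclear receptors, lies at position -123 of Cyp2c11, counted from the annotated start, and TTCNNNGAA, the motif of STAT factors, which carry the growth hormone signal, lies at -214 of Mup4l1. Of 33469 promoters in the table, 16.2% hold AGGTCA and 8.87% hold TTCNNNGAA. Of 11 promoters matched to the male list, 3 hold the first and 1 holds the second. A match describes the letters only.
Cyp2c11, chr1:246174966-246175265, plus strand: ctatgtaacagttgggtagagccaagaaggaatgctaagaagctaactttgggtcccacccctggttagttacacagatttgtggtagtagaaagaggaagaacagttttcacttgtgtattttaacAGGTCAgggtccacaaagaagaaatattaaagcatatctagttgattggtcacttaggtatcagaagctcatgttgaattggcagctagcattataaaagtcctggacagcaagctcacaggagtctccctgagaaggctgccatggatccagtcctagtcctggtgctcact
Mup4l1, chr5:80226485-80226784, minus strand: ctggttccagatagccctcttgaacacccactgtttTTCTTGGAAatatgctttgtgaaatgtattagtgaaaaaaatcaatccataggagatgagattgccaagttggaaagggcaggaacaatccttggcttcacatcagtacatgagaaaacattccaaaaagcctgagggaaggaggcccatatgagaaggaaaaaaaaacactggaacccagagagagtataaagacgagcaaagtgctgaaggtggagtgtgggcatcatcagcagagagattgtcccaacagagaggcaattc

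**Figure D3:**
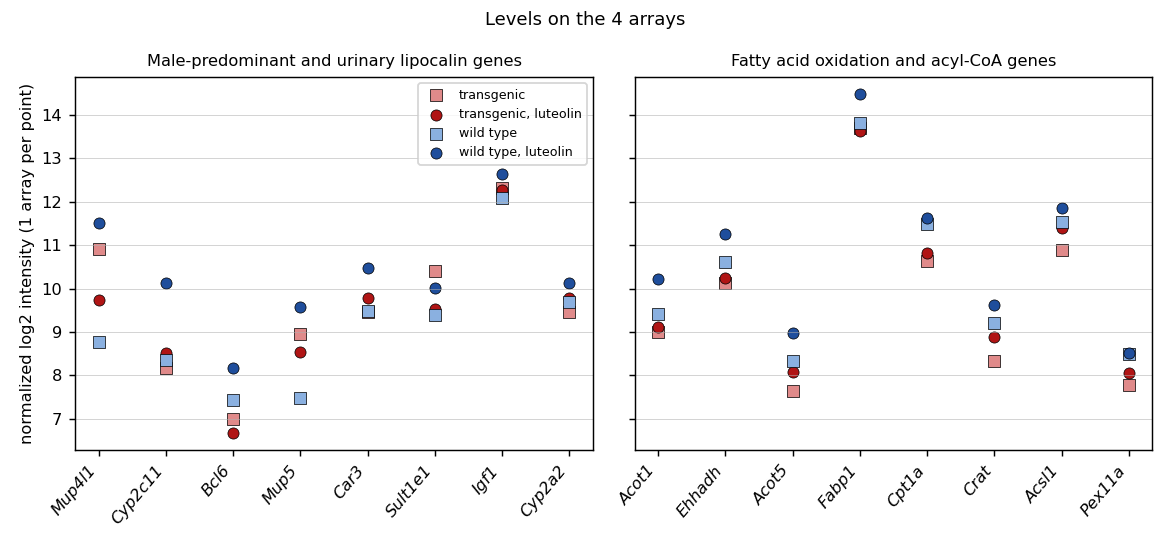
Normalized log2 intensity of 8 male-pattern genes (left) and 8 fatty acid genes (right), 1 point per array, with circles for arrays with luteolin and squares for arrays without. Wild-type liver with luteolin (dark blue) was the highest array for Mup4l1, Cyp2c11, Bcl6, Mup5, Car3, Igf1 and Cyp2a2 on the left. On the right it was the highest for genes that include Acot1, Ehhadh, Acot5, Fabp1, Cpt1a and Crat. Both transgenic arrays (red) lay below both wild-type arrays for Bcl6 and for the same genes named on the right.

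Several genes of fatty acid oxidation and acyl-CoA handling were among the 15 lowest named genes. Of 46 genes of the fatty acid oxidation list, 28 were lower and 17 higher, with a median of -0.04 against 0.00 over all genes. Lists with lower medians included lipogenic genes (-0.08), triglyceride and lipid droplet genes (-0.08) and oxidative phosphorylation subunits (-0.07). Without luteolin 39 of 46 fatty acid oxidation genes were lower and 7 higher, with a median of -0.17. By 1.5-fold or more with luteolin, 5 members were lower and 2 higher, where 0.444% and 0.43% of all genes were. The 5 were Acot1, Ehhadh, Fabp1, Cpt1a and Crat. The 2 higher members were Fgf21, whose probe lies in the stretch, and Angptl4 (0.63), a lipase inhibitor whose level stood apart in luteolin-fed transgenic liver only.

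Acot1, which frees fatty acids from coenzyme A in the cytosol, read 9.11 in transgenic and 10.21 in wild-type liver with luteolin, and 8.99 and 9.41 without it. Ehhadh, the bifunctional enzyme of peroxisomal oxidation, read 10.24 and 11.25 with luteolin and 10.12 and 10.61 without it. Acot1 was 2.15-fold and Ehhadh 2.01-fold lower with luteolin, and the ratios without it were -0.42 and -0.49. In both genes the 2 transgenic arrays were the lowest. The Ehhadh probe lies in rows 2945 to 3259, which touches its ratio without luteolin. With the running median along file rows taken off, the luteolin ratio of Ehhadh was -0.85, short of 2-fold, and that of Acot1 was -1.04. Cpt1a, the carnitine palmitoyltransferase that admits long-chain fatty acids to mitochondria, read 10.81 and 11.62 with luteolin and 10.62 and 11.48 without it. Crat, the carnitine acetyltransferase, read 8.87 and 9.63 with luteolin and 8.33 and 9.20 without it. Cpt1a and Crat differed between genotypes by about as much in either diet, -0.80 and -0.86 for Cpt1a and -0.76 and -0.88 for Crat. Acot5, a thioesterase outside the list, had ratios of -0.91 and -0.70, with levels of 8.07 and 8.98 in the luteolin-fed pair.

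Other members had the same sign. Acsl1, an acyl-CoA synthetase, was at -0.46 with luteolin and -0.66 without, and Pex11a, a protein of peroxisome division, at -0.46 and -0.72. Fabp1, the liver fatty acid carrier, read 13.62 and 14.47 with luteolin but 13.70 and 13.81 without it, so wild-type liver with luteolin stood alone and the ratio was -0.85. The beta-oxidation enzyme Acadm (0.05), the omega-hydroxylase Cyp4a1 (-0.06) and the receptor Ppara itself (0.02) were near 0. Outside the list, the mitochondrial and lipid genes Tomm20 (-0.84), an import receptor, and Pnpla8 (-0.80), a phospholipase, were among the 15 lowest named genes. Csnk2a2 (-1.76), a catalytic subunit of casein kinase 2, and Ndufaf5 (-0.81), an assembly factor of complex I, were low on the transgenic luteolin array alone, with Csnk2a2 at 6.05 there against 7.65 to 7.81 on the other 3.

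Of the promoters of 37 fatty acid oxidation genes that matched the table, 9 (24.3%) hold AGGTCA. Of all promoters 16.2% hold it, and of those of genes compared 13.3%. Among the 5 members lower by 1.5-fold or more, 1 promoter holds it. A direct repeat of AGGNCA with any 1 base between the copies, of the kind PPAR-alpha binds, is in 1 of the 37 and in 0.415% of all promoters. The 1 is Fabp1, where the repeat is read on the other strand at -77 and contains a half-site. Acot5 holds a half-site at -17. These 2 are shown because their genes were lower and their windows hold a match, marked in capitals. The windows of Acot1 and Ehhadh hold none of the 3 motifs, which says only that these letters are not there.
Fabp1, chr4:104749090-104749389, plus strand: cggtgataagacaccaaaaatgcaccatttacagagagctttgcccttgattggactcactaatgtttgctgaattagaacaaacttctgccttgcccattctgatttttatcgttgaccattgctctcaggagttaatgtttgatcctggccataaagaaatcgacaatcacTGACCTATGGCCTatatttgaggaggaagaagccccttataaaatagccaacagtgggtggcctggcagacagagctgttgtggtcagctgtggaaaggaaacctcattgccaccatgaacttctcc
Acot5, chr6:109432812-109433111, plus strand: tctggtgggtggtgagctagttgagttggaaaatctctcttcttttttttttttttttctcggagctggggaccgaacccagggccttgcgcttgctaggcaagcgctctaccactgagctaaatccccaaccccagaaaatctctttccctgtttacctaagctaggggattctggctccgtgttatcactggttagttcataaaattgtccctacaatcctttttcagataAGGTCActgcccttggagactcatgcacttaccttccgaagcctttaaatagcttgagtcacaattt

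Bile acid and lipoprotein genes were mostly lower by less. Cyp7a1, the rate-limiting enzyme of bile acid synthesis, read 8.76 in transgenic and 9.75 in wild-type liver with luteolin, and 9.71 and 9.19 without it, so its ratio was -0.99 with luteolin and 0.51 without. The transgenic luteolin array was the lowest of the 4. Of 31 bile acid genes, 19 were lower and 12 higher, with a median of -0.12, the same as without luteolin. The synthetic enzymes Akr1d1 (-0.44) and Cyp8b1 (-0.34) lay below 0, while Nr0b2 (0.32), the repressor that bile acids induce, lay above. Of 42 complement and coagulation genes, 24 were lower, with a median of -0.11, led by the complement gene C6 (-0.64). Of 20 genes of the apolipoprotein list, 13 were lower and 6 higher, with a median of -0.06. The structural apolipoprotein Apob (-0.52), its loading protein Mttp (-0.44) and hepatic lipase Lipc (-0.45) were lower, while the apolipoprotein Apof (0.57) was higher. Among cholesterol genes Hmgcs1 (-0.56) and Idi1 (-0.51) were the lowest and the median was -0.04. With the running median along file rows taken off, the complement median was -0.0246 and the bile acid median -0.09. Apob, Lipc and Apof were then at -0.37, -0.35 and 0.50.

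Outside the stretch no gene reached 2-fold higher. After the values were known, 15 genes there were picked, with ratios from 0.67 to 0.94. These were the largest ratios among genes with settled names whose sign held under median centring and in the authors' normalized values. Lpin1, a phosphatidate phosphatase that also acts as a coactivator of fat oxidation genes, read 8.84 in transgenic and 7.90 in wild-type liver with luteolin, and 9.61 and 8.05 without it. Both transgenic arrays lay above both wild-type arrays, with ratios of 0.94 and 1.56. Mgp, a matrix protein that inhibits calcification, had ratios of 0.82 and 1.30, and the tetraspanin Cd63, a marker of late endosomes, 0.82 and 0.49. Txnip, which binds thioredoxin and responds to glucose, was at 0.84 and 0.45, and Errfi1, an inhibitor of the EGF receptor, at 0.68 and 0.49. All 4 were higher in the transgenic liver in either diet. The same held for the junction gene Cldn7 (0.67 and 0.36), a claudin of biliary cells.

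Klf13, a zinc finger factor, was higher in both diets too (0.72 and 0.30). Others of the set had ratios near or below 0 without luteolin. Trib3, a pseudokinase induced by amino acid stress, read 9.24 and 8.33 with luteolin and 8.81 and 9.15 without it, ratios of 0.91 and -0.34. The wild-type luteolin array was the lowest. Klf10, a zinc finger factor induced by TGF-beta, read 8.73 and 7.96 with luteolin and 7.79 and 7.96 without it, and stood apart in luteolin-fed transgenic liver only. Rps26 (0.78) lies 1 row past the end of the stretch. Hddc3 (0.78, row 11193), Slc37a3 (0.81, row 11096) and Rnd1 (0.79, row 10872) lie before its start at row 11267. In each of these genes the wild-type luteolin array was the lowest. The ends of the stretch are set by genes that met the 0.7 and 0.4 limits, and its part in these ratios was not tested. All 15 stayed above 0 in each alternative that kept them (Cldn7 was too dim for the one limited to brighter genes). Under median centring and in the authors' normalized values, the rule that picked them fixed this sign. When each array was centred on its median, 4 of the 15 reached 1.5-fold.

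Connexins differed little between the luteolin-fed genotypes. Gjb1 read 10.42 in transgenic and 10.40 in wild-type liver with luteolin, a ratio of 0.02, and 10.07 and 10.40 without it, a ratio of -0.34. The transgenic array without luteolin was thus the low one. The sources used here do not say whether the Gjb1 probe also reads the transgene, so its level does not check the genotype. Gjb2, the second connexin of hepatocytes, read 9.47 and 9.88 with luteolin and 9.40 and 9.77 without it, with ratios of -0.41 and -0.38. Both transgenic arrays lay below both wild-type ones. Gja1 (0.28), the connexin of stellate and biliary cells, and Gja4 (0.27), an endothelial connexin, were higher. Of 12 gap junction genes compared, 8 were higher and 3 lower, and none passed 1.5-fold. Of 19 tight and adherens junction genes, 11 were higher and 8 lower, with a median of 0.05. Cldn1, a claudin of hepatocytes, was the lowest at -0.59, while Cldn7 (0.67), the scaffold Tjp3 (0.54) and beta-catenin Ctnnb1 (0.46) were the highest.

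The antigen presentation, macrophage and Nrf2 lists had medians above that of all genes. Other immune lists lay nearer 0, with neutrophil markers at 0.04, cytokine, chemokine and NF-kB genes at 0.0136 and interferon-stimulated genes at 0.0079. T and NK cell markers (-0.0057), B and plasma cell markers (-0.0053) and glutathione transferases (-0.03) lay below 0. Of 32 antigen presentation genes, 26 were higher, with a median of 0.16 against 0.07 without luteolin. The invariant chain Cd74 read 11.27 and 10.75 with luteolin, a ratio of 0.51, and the class II chaperone RT1-DMa was at 0.61. Of 20 macrophage markers, 16 were higher, with a median of 0.17. Without luteolin 16 were higher too, with a median of 0.20. Cd63 (0.82), Cd9 (0.48) and Cd5l (0.48), a protein of Kupffer cells, led the markers with luteolin. Cd68, a lysosomal macrophage marker, read 8.98 on both luteolin arrays. Of 32 Nrf2 antioxidant genes, 21 were higher, with a median of 0.13 against 0.00 without luteolin. Thioredoxin Txn1 (0.67) and metallothionein Mt2A (0.64) were among the higher ones, while Me1 (-0.57) and catalase Cat (-0.49) were lower. With each array centred on its median the medians of the antigen presentation, macrophage and Nrf2 lists were -0.02, -0.05 and -0.17, where all genes had a median of -0.05. On that scale the Nrf2 list lay below all genes. The part of macrophage number in the antigen presentation ratios was not tested.

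**Figure D4:**
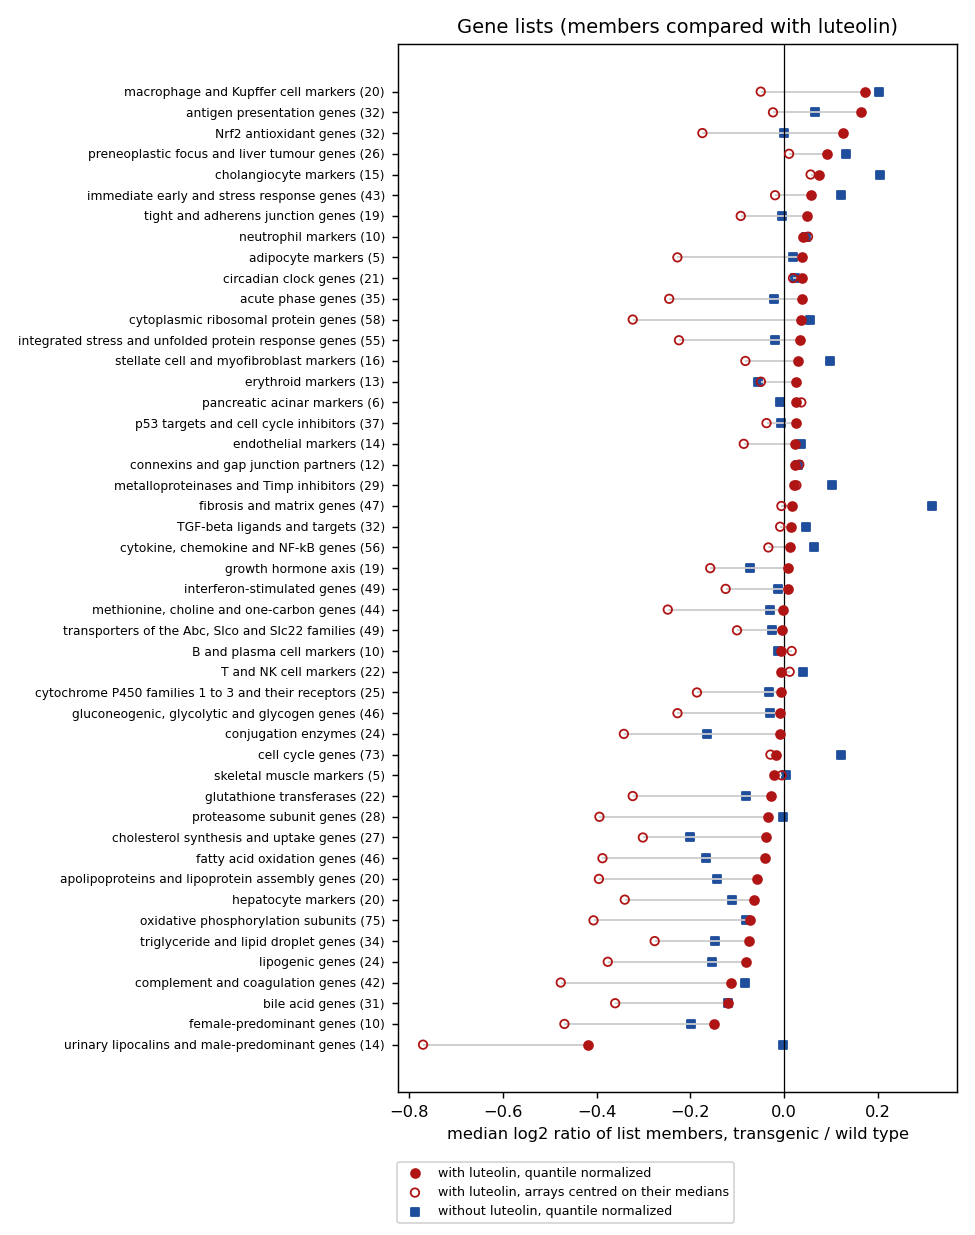
Median log2 ratio of transgenic over wild type for 47 gene lists, with the number of members compared in brackets. Filled red circles are the luteolin-fed pair, open circles the same pair with arrays centred on their medians, and blue squares the pair without luteolin. The male-predominant list lies lowest at -0.42, and the fibrosis list is at 0.02 with and 0.32 without luteolin.

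Lists of scar and proliferation genes had medians near 0 in the luteolin-fed pair. Of 47 fibrosis and matrix genes, 30 were higher and 17 lower, with a median of 0.02 with luteolin and 0.32 without. Of 29 metalloproteinase and Timp genes, 19 were higher and 10 lower, with medians of 0.02 and 0.10. The fibrillar collagen gene Col3a1 read 9.99 in transgenic and 10.32 in wild-type liver with luteolin, and 11.56 and 10.27 without it. Col1a2 read 7.92 and 7.82 with luteolin and 9.30 and 8.17 without it. In both genes the transgenic array without luteolin stood alone above the other 3, and the ratios with luteolin were -0.33 and 0.10. The protease inhibitors Timp1 (0.41) and Timp2 (0.54) and the macrophage elastase Mmp12 (0.43) were higher with luteolin and had ratios of 0.54, 0.54 and 0.62 without it. Of 73 cell cycle genes, 49 were lower and 24 higher, with a median of -0.02 against 0.12 without luteolin, and none passed 1.5-fold. Cdk1, the mitotic kinase, was at 0.07. The difference between diets was not tested for any list.

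Of the glutathione transferases, Gstp1, the marker of preneoplastic foci in rat liver, read 10.51 in transgenic and 10.33 in wild-type liver with luteolin, and 12.32 and 12.12 without it. Its genotype ratio was 0.18 and 0.20, and the arrays divided by diet rather than by genotype. Akr1b8, an aldo-keto reductase, was at 0.28 and the list of 22 transferases had a median of -0.03. Biliary markers Krt19 (0.42) and Prom1 (0.47) were higher, and 12 of 15 cholangiocyte markers were above 0, with a median of 0.07 against 0.20 without luteolin.

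The genotype ratios of the 2 diets had little in common. Over the 14167 genes above background on all 4 arrays, r between the pairs was 0.12 across genes, and -0.21 when arrays were centred on their medians. Genes that share a scan are no replicates, so r is a description. Without luteolin 19 genes (0.129%) were higher and 7 (0.0474%) lower at 2-fold. None of them was higher in both pairs or lower in both at that size. Genes by which the stretch was found could not be higher in both. That choice holds their ratio without luteolin to at most 0.4 in size. Of the 9 genes lower with luteolin, 4 (44.4%) were among the 19 higher without it (21.1%). They were Mup4l1, Mup5 and a pair of genes with provisional names. At 1.5-fold, 7 genes were higher in both pairs, 11.3% of the 62 with luteolin and 6.93% of the 101 without (0.684% of genes there). Lpin1, Mgp, the phosphatase Dusp1 (0.62 and 0.87) and the stress gene Gadd45g (0.81 and 0.65) were among them, though the Gadd45g probe lies in the stretch. In both pairs 9 genes were lower at 1.5-fold, 14.1% and 15.8% of the 64 with luteolin and the 57 without (0.386% of genes there), among them Cpt1a, Crat, Acot5 and Chac1 (-0.63 and -0.79), which degrades glutathione.

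**Figure D5:**
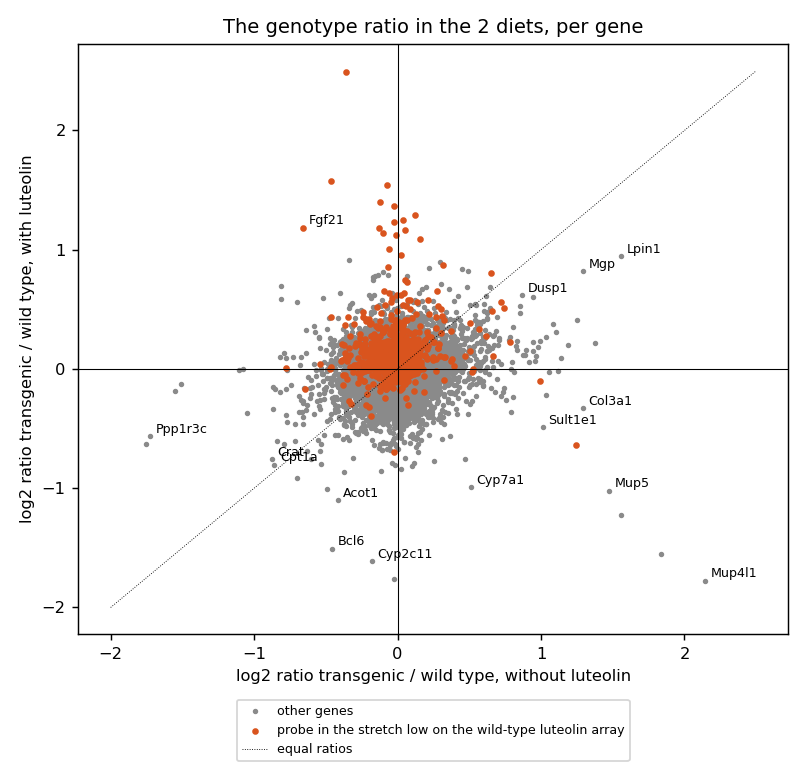
Log2 ratio of transgenic over wild type with luteolin against the same ratio without luteolin, 1 point per gene above background on all 4 arrays (14167 genes). Lpin1 and Mgp lie at upper right and Cpt1a and Crat at lower left, while Mup4l1 and Mup5 lie at lower right. Orange points are genes of the file stretch. For the genes by which it was found, that choice fixes a positive ratio with luteolin. It also holds their ratio without luteolin to at most 0.4 in size, so their place in the plot is no separate finding. Among other genes of the stretch, Gadd45g (0.81 with and 0.65 without luteolin) and Fgf21 (1.18 and -0.66) differed in both pairs, while Tpmt (0.56 and -0.05) did not.

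Genes above background on only 1 of the 2 arrays added nothing at 2-fold. Transgenic liver alone had 143 of them and wild-type liver alone 1380. Against the lowest signal kept on the dim array, only Barhl2, a homeobox gene, had a bound past 1.5-fold, at least 1.67-fold lower in the transgenic liver. A further 4140 genes were above background on neither array.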

How the data were processed

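Per the labels' protocols, total liver RNA was amplified and the product coupled to Cy5, with 1 sample on each array. The authors deposited, per the file headers, a raw intensity, a background-subtracted intensity and a globally normalized intensity for each of 20174 probes. Compared with the raw values, the subtraction took off 1 constant per array. The sources used here do not name the scanner or the array maker. 2 spots with a quality flag were left out.

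Raw intensity was corrected with the constant by limma's normexp method (offset 50), taken to log2 and quantile normalized over the 4 arrays (R 4.3.3, limma 3.58.1). A probe was above background where the deposited intensity after subtraction was not blank. Names came from the RefSeq gene table by Entrez identifier, accession or symbol. 80 genes had several probes, and the brightest was kept. Each group had 1 array, so no test between groups was possible, no p-value is given, and counts use 2-fold and 1.5-fold thresholds. The number of arrays limits the precision. The procedure was tested on simulated data.

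Named genes were the 15 largest ratios in each direction among genes with settled names whose sign held under median centring and in the authors' normalized values, the connexins, and up to 4 genes with the largest ratios in each of the 47 lists (35 pathways, 12 cell types). Some named genes are not reported here. Other members, the 15 higher genes outside the stretch and Barhl2 were chosen after their values were seen. The members and lists were chosen with earlier results of these data known. The 13 alternatives comprised 9 planned ones and 4 chosen after seeing the data: the authors' values centred, both versions of the running median over 500 genes along file rows, and leaving out only the stretch on the wild-type luteolin array. Stretches hold at least 4 genes low or high on 1 array alone, no more than 700 rows apart, at 10 or more times the density over the array.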

Additional observations from a re-analysis of the deposited data

Results flagged for a closer look

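The genotype ratio of 3 named genes pointed one way with luteolin and the other way without it, by at least 1.5-fold in each pair of arrays. The ratio with luteolin less the ratio without it was -3.92 (log2) for Mup4l1, -2.50 for Mup5 and 1.84 for Fgf21. Each group had 1 array, so the difference was not tested. The Fgf21 probe lies in the stretch of file rows where genes were low on the wild-type luteolin array, and the Mup4l1 probe in the stretch where genes were low on the transgenic array without luteolin.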

How the results depend on the processing

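No paired analysis was possible because each group had 1 array, and no array could be left out in turn for the same reason. The 24 genes at 2-fold or more (15 higher, 9 lower) became 38 (7 and 31) with each array centred on its median, which put the median of all genes at -0.05. They became 812 (46 and 766) on the authors' normalized values, whose median was -0.42, and 263 (145 and 118) on those values centred. Leaving out both stretches gave 6 (0 and 6), leaving out only the stretch on the wild-type luteolin array gave 9 (0 and 9), and leaving out both stretches and taking off the running median gave 7 (1 and 6). The fall to 0 follows from the genes left out, and for the other settings the cause was not tested. An offset of 16 gave 35 (22 and 13). At 1.5-fold, the 62 higher and 64 lower genes became 23 and 555 with each array centred on its median. On the authors' normalized values they became 143 and 4342, and on those values centred 670 and 756. Of list medians of at least 0.1 in size, 3 of 7 changed sign, each under median centring and the authors' normalized values, which put all genes at the medians just given: Nrf2 genes to -0.17 and -0.34, antigen presentation to -0.0235 and -0.15, and macrophage markers to -0.0496 and -0.22. Against those medians only the Nrf2 list under median centring lay below all genes, and on the authors' values centred the 3 were 0.08, 0.27 and 0.20. No named gene at 1.5-fold or more changed sign in any alternative. The naming rule itself fixes this in 2 alternatives for the largest ratios and for the 15 higher genes outside the stretch. Median raw intensities near the background constants limit what can be seen in dim genes.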
